A study of Rattus norvegicus with 28 samples.

Results

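Hippocampal gene expression in rats given Zoloft (sertraline) after traumatic brain injury (TBI) was compared with that in injured rats not given an antidepressant. The comparison used 6 of the 14 gene expression arrays of a series of 28 arrays, namely the 3 titled TBI+Zoloft and the 3 titled TBI, each made from the hippocampus of a separately numbered rat. All 6 rats were adult male Sprague-Dawley rats with a parasagittal fluid-percussion injury, which the labels call severe. The TBI+Zoloft rats were injected with Zoloft 1 h after the injury, and both groups were killed 24 h after it. The study's methods give injured rats either an antidepressant or vehicle, but the labels do not say whether the TBI rats received vehicle. The 2 Sham rats, which had the surgery without the injury, and the 3 TBI+Imipramine and 3 TBI+Prozac (fluoxetine) rats, injected at the same time, served as points of reference. RNA came from whole hippocampus, so fewer cells of a type and less RNA per cell cannot be told apart.

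Fluid-percussion injury drives a brief pulse of fluid against the exposed dura and deforms the brain beneath it. Within a day the injured hippocampus typically makes chemokines, acute-phase proteins and reactive-astrocyte proteins, and microglia and invading leukocytes become active. Sertraline and fluoxetine block the serotonin transporter on nerve terminals, while imipramine is a tricyclic drug that also blocks noradrenaline uptake.

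Levels are log2 values of brightness scaled to each array's own 75th percentile, so a level of 0 means as bright as that percentile and a difference of 1 means a 2-fold change. Of 30367 probes, 17322 were tested, namely those above background in all rats of some group, and 11902 of these carried a gene symbol. Probes above background numbered 14676, 17084 and 17415 in the TBI rats and 17112, 15846 and 16962 in the Zoloft rats, and none was saturated. The 3 TBI arrays lay on slide 1 and the 3 Zoloft arrays on slide 2. Only the TBI+Prozac group lay on both of these slides, with rat 1 on slide 1 and rats 2 and 3 on slide 2. Zoloft rat 3 stood apart from Zoloft rats 1 and 2 in several gene lists given below, and the medians of the lists it moved most are given with and without it. TBI rat 1 had the lowest median level over the probes tested, -2.367, against -2.074 and -2.004 in TBI rats 2 and 3. In most gene lists it lay below the mean of the TBI rats. Without TBI rat 1 the median difference over all probes tested was -0.1057. Without any other single TBI or Zoloft rat it ran from -0.02462 to 0.09205. List medians without TBI rat 1 are not given.

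Zoloft raised 201 probes and lowered 38, 239 in all, which were 1.16%, 0.219% and 1.38% of the probes tested (limma over the 14 arrays, Benjamini-Hochberg adjusted p under 0.05). Cavin2, Igtp, Arfgef2 and Spsb4 were among the raised genes, and Abhd16a, Cct5, Jagn1 and Eif3g were among the lowered genes. The median difference of the raised probes was 1.06 and that of the lowered probes was -0.76, beside 0.015 over all probes tested. The raised probes were mostly dim, with a median level of -3.83 against -2.07 over all probes tested. Gene symbols were attached to 67 of the 201 raised probes (33.3%), to 28 of the 38 lowered probes (73.7%) and to 68.7% of all probes tested. Of the raised probes, 116 were above background on all 6 arrays and 38 on no TBI array, while 30 of the 38 lowered probes were above background on all 6. At an unadjusted p under 0.05, 8.91% of the probes tested were higher with Zoloft and 6.3% were lower. The 3 Zoloft rats were all above the 3 TBI rats at 1488 probes (8.59%) and all below them at 1170 probes (6.75%), and all 239 called probes were among these.

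The number of calls depended on single rats and on the slides. Without Zoloft rat 3 a single probe, which carries no symbol, was called, and without TBI rat 1, TBI rat 2, Zoloft rat 1, Zoloft rat 2, Sham rat 1 or Sham rat 2 the counts were 28, 29, 89, 29, 157 and 157. With the slide as a block, the 201 raised probes were all still higher, with a median difference of 0.61, and the 38 lowered probes were all still lower, with a median of -0.66, but none of them was called, and 1 other probe, of Zfp202, was. A model-based background correction (normexp) gave medians of 0.65 and -0.42 for the same raised and lowered probes, with all 201 higher and 36 of the 38 lower. Raised probes were 84.1% of the calls, but 58.4% after quantile normalization (469 raised and 334 lowered), 62.7% with the percentile taken over all probes (517 and 307) and 62.4% in the deposited processed values (502 and 303).

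**Figure D1:**
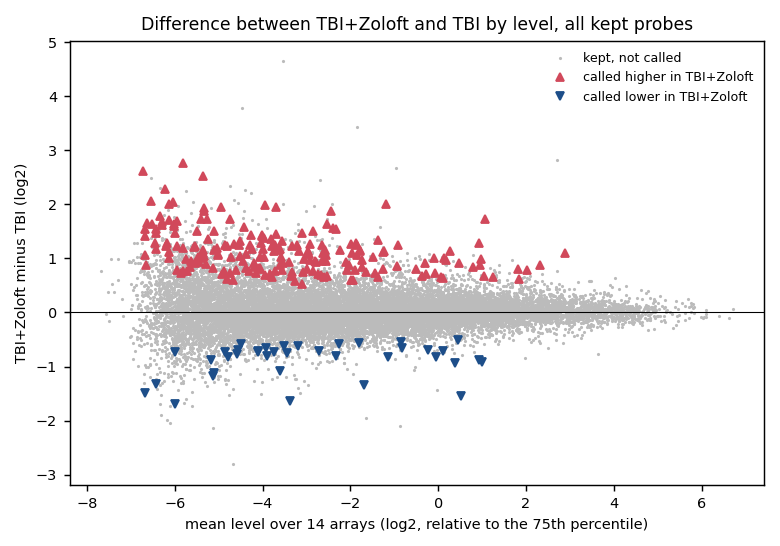
Difference between TBI+Zoloft and TBI (vertical axis, log2) for each of the 17322 probes tested, against the probe's mean level over the arrays (horizontal axis, log2 relative to the 75th percentile of the array). The 201 raised and 38 lowered probes are coloured and the rest are grey, and most of the raised probes lie to the left, at low levels.

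Of the raised genes that were bright on every array, Cavin2, which encodes a coat protein of caveolae found in vascular endothelium and other cells, was at 1.39, 1.79 and 2.06 in the TBI rats and at 2.65, 2.55 and 2.66 in the Zoloft rats. The Zoloft rats lay close together and well above the TBI rats, and they approached the Sham rats, which were at 2.88 and 3.03. Cavin2 thus rose by 0.87 (SE 0.17, n = 3 against 3, 1.83-fold, adjusted p = 0.032 by limma). Igtp, an interferon-inducible GTPase of the cell's defence against intracellular parasites, was at 1.25, 1.56 and 1.61 in the TBI rats and at 2.17, 2.15 and 2.48 in the Zoloft rats. It rose by 0.79 (SE 0.16, limma adjusted p = 0.036), and its Sham levels of 2.76 and 2.53 were above those of all 6 injured rats. A further probe of Igtp was not called, so the rise rests on 1 of its 2 probes. Of 27 interferon-stimulated genes in a fixed list, none was called (beside 1.38% of all probes), 13 were higher and 14 lower, and the median was -0.003.

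Arfgef2, an exchange factor for the Arf GTPases that form Golgi vesicles, was at -2.78, -2.58 and -2.42 in the TBI rats and at -1.79, -1.73 and -1.47 in the Zoloft rats. It rose by 0.93 (SE 0.16, limma adjusted p = 0.027), and the Zoloft rats were also above both Sham rats, at -2.36 and -2.03. Mark4, a kinase that phosphorylates tau and other microtubule-associated proteins, was at -4.87, -4.49 and -4.22 in the TBI rats and at -3.47, -2.90 and -3.48 in the Zoloft rats. All 3 Zoloft rats were higher, and the rise was 1.24 (SE 0.24, limma adjusted p = 0.032). Spsb4, an adaptor that brings substrates to a cullin ubiquitin ligase, was at -1.65, -1.46 and -1.27 with TBI and at -0.75, -0.68 and -0.35 with Zoloft. It rose by 0.87 (SE 0.16, limma adjusted p = 0.028) to levels that spanned those of Sham, -0.45 and -0.61. Rchy1, a ubiquitin ligase that acts on p53, rose by 1.24 (limma adjusted p = 0.028), and Tuba3b, an alpha-tubulin above background on 2 of 3 TBI arrays, also rose by 1.24 (limma adjusted p = 0.043). In fixed lists near these genes, 1 of 57 kinesins, dyneins and tubulins was raised. Of 53 Rab GTPases and 45 proteasome subunits none was, beside 1.16% of all probes, so these counts are near that share. The medians of these lists were -0.11, 0.02 and -0.10, in that order.

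Receptors, channels and synaptic genes among the raised probes included Adra2b, the alpha-2B adrenergic receptor. Adra2b was at -5.36, -5.01 and -5.02 in the TBI rats and at -4.39, -4.29 and -3.86 in the Zoloft rats. It rose by 0.95 (SE 0.17, limma adjusted p = 0.028) but stayed below the Sham levels of -3.50 and -3.21, a difference that was itself called (limma adjusted p = 0.025). Nlgn2, the adhesion protein neuroligin 2 of inhibitory synapses, rose by 0.68 (limma adjusted p = 0.039), and Cacna1i, a T-type calcium channel, rose by 0.66 (limma adjusted p = 0.028). In each of these 2 genes 1 of 2 probes was called. The nicotinic acetylcholine receptor subunits Chrnb4 and Chrna1, the latter above background on 2 of 3 TBI arrays, rose by 0.82 and 1.06 (limma adjusted p = 0.023 and 0.043). Pcdhb12, a protocadherin above background on 2 of 3 TBI arrays, rose by 0.62 (limma adjusted p = 0.043). Cdh23, a cadherin of the tip links of hair cells, was at -6.08, -5.98 and -7.04 in the TBI rats and at -3.69, -4.08 and -3.74 in the Zoloft rats, and was called higher (limma adjusted p = 0.015). It was above background on 1 of 3 TBI arrays, so the fitted difference of 2.53 rests in part on TBI levels that were not well above background.

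Among called genes above background on all 6 arrays, the steepest rise was that of Cox6c-ps1, a pseudogene copy of the respiratory-chain subunit Cox6c. It was at -4.36, -3.67 and -3.27 in the TBI rats and at -1.55, -2.01 and -2.09 in the Zoloft rats, a rise of 1.88 (SE 0.40, 3.68-fold, limma adjusted p = 0.043), with Sham at -1.23 and -1.94. A probe for a pseudogene can bind transcripts of the parent gene, so its source is uncertain. Uqcrq, a subunit of respiratory complex III above background on 2 of 3 TBI arrays, rose by 1.02 (limma adjusted p = 0.049). Cox6c-ps1 and Uqcrq were the 2 called members of the 88 respiratory-chain subunits and copies measured, beside 1.16% of all probes raised. The median difference of that list was 0.02. Secreted and signalling proteins that rose were Pla2g3, a secreted phospholipase A2, by 1.17, Sfrp1, an extracellular Wnt antagonist above background on 1 of 3 TBI arrays, by 0.77, and Vasn, a TGF-beta-binding surface protein for which 1 of 2 probes was called, by 0.97 (limma adjusted p = 0.030, 0.036 and 0.036). Pou5f1, the pluripotency factor Oct4, rose by 1.04, Pgc, a stomach pepsinogen, by 0.91, and C10h17orf107 by 0.84 (limma adjusted p = 0.040, 0.032 and 0.032).

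Of the raised genes with a symbol, 5 are named that were above background on all 3 Zoloft arrays and on no TBI array, so their change is known only as a bound. Hes1, a transcriptional repressor that Notch signalling switches on, was not well above background in the TBI rats (-6.64, -8.40 and -8.42) and was measured in the Zoloft rats at -5.29, -5.06 and -5.27. It was at least 2.04-fold higher with Zoloft, taking the dimmest level that counted as above background on each TBI array (limma adjusted p = 0.024). Hes1 was above background on 0 of 2 Sham arrays, 2 of 3 imipramine arrays and 0 of 3 Prozac arrays. Fgf17, a fibroblast growth factor, was at least 1.63-fold higher, and Acp3, an acid phosphatase, at least 1.65-fold (limma adjusted p = 0.011 and 0.023). For Lce1e, a cornified-envelope protein of skin, the bound was 1.91-fold, and for the olfactory receptor Or4b1 it was 1.38-fold (limma adjusted p = 0.032 and 0.044).

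Among 24 measured genes of the Notch pathway, Hes1 was the single call, beside 1.38% of all probes called. The median difference of the list was -0.005. The related repressor Hes7 was at -1.71, -1.41 and -1.45 in the TBI rats and at -0.95, -0.74 and -0.56 in the Zoloft rats, which did not overlap, but the difference of 0.77 was not called (limma adjusted p = 0.104). Hes5, a Notch target of neural progenitors, was above background on 1 TBI array and no Zoloft array. The promoter of Hes1 is shown because it holds the short motif bound by RBPJ, the DNA-binding partner of Notch. Its RefSeq sequence in the GRCr8 build lies at chr11:84212996-84213295 on the minus strand and runs from 250 bases before the start of the gene to 50 bases after it, with the 2 occurrences of TGGGAA in capitals.
Hes1: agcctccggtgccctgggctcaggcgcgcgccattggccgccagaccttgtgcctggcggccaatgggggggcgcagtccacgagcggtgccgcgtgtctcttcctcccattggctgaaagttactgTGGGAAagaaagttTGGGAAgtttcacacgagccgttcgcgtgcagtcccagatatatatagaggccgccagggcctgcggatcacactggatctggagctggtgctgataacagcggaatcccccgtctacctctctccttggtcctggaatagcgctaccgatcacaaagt

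Promoters of the same 300-base length were found for 51 raised genes, 24 lowered genes and 8375 of the 10220 genes measured. The letters TGGGAA, on either strand, were in 33.3% of the raised, 25% of the lowered and 22.7% of all promoters. The GC box GGGCGG was in 41.2%, 58.3% and 61.1%, and the E-box CACGTG, to which Hes and clock proteins can bind, was in 5.88%, 8.33% and 9.31%. The cAMP response element TGACGTCA was in none of the raised promoters, in 4.17% of the lowered and in 3.3% of all. These counts describe letters in the window and are not binding sites.

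Among the lowered genes, Abhd16a, a lipase that makes lysophosphatidylserine, was at 1.01, 1.08 and 1.02 in the TBI rats and at 0.12, -0.08 and 0.26 in the Zoloft rats. It fell by 0.93 in log2 units (SE 0.15, adjusted p = 0.023 by limma), to below the Sham levels of 0.53 and 0.76. Cct5, a subunit of the chaperonin that folds actin and tubulin, was at -0.23, 0.07 and -0.19 with TBI and at -0.60, -0.77 and -1.05 with Zoloft, against -0.63 and -0.75 in Sham. It fell by 0.69 (SE 0.14, limma adjusted p = 0.040). Eif3g, a subunit of the translation initiation factor eIF3, was at -0.75, -0.66 and -0.76 with TBI and at -1.24, -1.21 and -1.33 with Zoloft, against -1.25 and -1.48 in Sham. The drop of Eif3g was 0.54 on the log2 scale and small beside those above, but the rats of each group differed little (difference -0.54, SE 0.11, limma adjusted p = 0.033).

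Jagn1, an endoplasmic reticulum protein needed by neutrophils, was at -0.68, -0.44 and -0.51 in the TBI rats and at -1.17, -1.30 and -1.12 in the Zoloft rats, and fell by 0.66 (limma adjusted p = 0.043). Wdr18, which takes part in ribosome biogenesis, was at -2.15, -2.10 and -2.14 with TBI and at -2.69, -2.72 and -2.71 with Zoloft, and fell by 0.58 (limma adjusted p = 0.030). Both genes ended near their Sham levels, which were -1.30 and -1.26 for Jagn1 and -2.62 and -2.71 for Wdr18. Ctbs, a lysosomal enzyme that trims the chitobiose core of glycoproteins, was at -3.58, -2.64 and -2.76 with TBI and at -4.33, -4.59 and -4.94 with Zoloft, the largest drop among these genes (1.63 lower on the log2 scale, difference -1.63, SE 0.32, limma adjusted p = 0.033). It was the single call among 57 measured lysosome and autophagy genes, whose median difference was -0.07, and Eif3g was the single call among 57 translation factors, whose median was 0.03. Over all probes 0.219% were lowered and 1.38% were called in either direction, so 1 call of 57 is near the latter share.

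Enzymes of organelles were among the lowered genes. Mcat and Cbr4, which act in mitochondrial fatty acid synthesis, fell by 0.74 and by 0.72, Metap1d, a mitochondrial methionine aminopeptidase, fell by 0.69, and Amt, of the glycine cleavage system, fell by 0.62 (limma adjusted p = 0.032, 0.046, 0.031 and 0.037). Dhrs7b, an enzyme of ether lipid synthesis, fell by 0.56, Elp6, of the elongator complex, fell by 0.72, and Zcchc12, a transcriptional coactivator, fell by 0.81 (limma adjusted p = 0.043, 0.028 and 0.041). Lrp12, a receptor of the LDL receptor family, was measured on all TBI arrays, at -4.61, -4.97 and -4.90, and was not well above background on any Zoloft array. It was called lower with Zoloft (limma adjusted p = 0.025), but the fitted 2.26-fold drop rests on Zoloft levels that were not well above background.

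**Figure D2:**
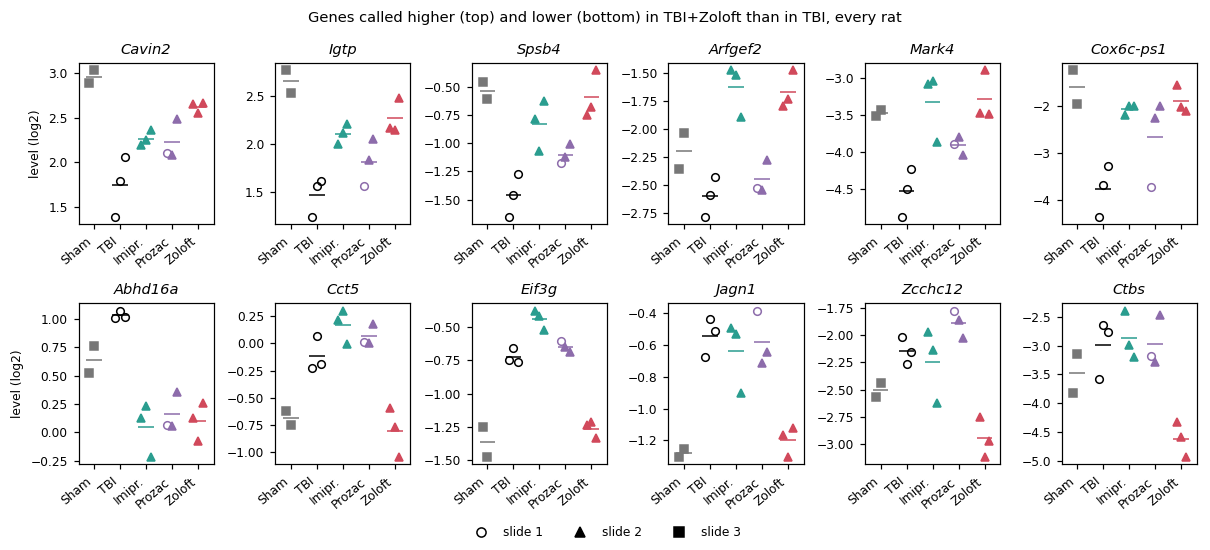
Level of 12 named genes in each rat (vertical axes, log2 relative to the 75th percentile of the array), by group, with bars at the group means, open circles for slide 1, triangles for slide 2 and squares for slide 3. The top row holds genes that rose with Zoloft against TBI (Cavin2, Igtp, Spsb4, Arfgef2, Mark4 and Cox6c-ps1) and the bottom row genes that fell (Abhd16a, Cct5, Eif3g, Jagn1, Zcchc12 and Ctbs), and in each panel the 3 TBI and 3 Zoloft rats do not overlap.

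Different probes of a gene did not always move together. Called probes belonged to 93 genes, 23 of which had more than 1 probe tested; every probe was called in 1 of these 23, Tex19.2, and probes pointed in opposite directions in 5. Hspa8, a constitutive heat shock protein of the Hsp70 family, had 4 probes. Its brightest probe was at 5.26, 5.61 and 5.52 with TBI and at 5.39, 5.15 and 5.02 with Zoloft, a difference of -0.28 that was not called (limma adjusted p = 0.365). A much dimmer probe of Hspa8 was at 1.08, 1.32 and 1.07 with TBI and at 0.32, 0.38 and 0.01 with Zoloft and was called (difference -0.92, limma adjusted p = 0.027), as was the dimmest. No member of the list of 20 heat shock proteins and chaperones was called by its brightest probe.

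Which injury genes moved toward Sham was asked by setting each probe's 2 differences side by side, TBI against Sham and Zoloft against TBI. These differences share the 3 TBI arrays, so a chance deviation of those arrays pushes them in opposite directions. TBI raised 1438 probes against Sham (8.3%) and lowered 1441 (8.32%), and 208 of these 2879 probes, or 7.22%, were called in the opposite direction with Zoloft. They were 187 that were lower after TBI and raised with Zoloft and 21 that were higher after TBI and lowered with Zoloft, and the 31 remaining called probes were not called between TBI and Sham. The count of 208 became 0 without Zoloft rat 3, 23 and 27 without TBI rat 1 or 2, 66 and 24 without Zoloft rat 1 or 2, and 121 without either Sham rat. The Sham arrays lay on slide 3 and were scanned on a different day from all other arrays, so injury, slide and scan day cannot be told apart. The 201 raised probes had medians of -1.50 for TBI against Sham and -0.41 for Zoloft against Sham, where 30 were still called lower than Sham and 2 were called higher, Cdh23 and a probe without a symbol. The 38 lowered probes had medians of 0.56 and -0.26, and 4 of them, 3 of which are Lix1, Cbr4 and Mphosph6, were called lower in Zoloft than in Sham. Over all probes, 1.8% were called lower and 4.16% higher in Zoloft than in Sham.

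The 20 genes named for the size of the injury difference were all called lower after TBI and higher with Zoloft. For Tob1, Bicdl1, Hormad2, Fgf17, Or4b1, Or5p76b, Gapdh-ps1, Acp3 and Lce1e no TBI array was above background, so their injury differences are known only as bounds and have no order. Hes1 was above background on no TBI and no Sham array, so no size is given for its injury difference. Its Zoloft levels lay above both Sham levels, -6.55 and -5.92, so a move toward Sham is not shown for it. Tob1, an antiproliferative protein, was at -5.32 and -4.61 in Sham, above background there and on no TBI or Zoloft array. Gsta5, a glutathione S-transferase, was at -3.51 and -3.28 in Sham, -6.06, -5.21 and -5.26 in TBI and -4.05, -4.17 and -4.37 in Zoloft, a difference of -2.11 after TBI and of 1.32 with Zoloft. It was above background on 2 of 3 TBI arrays and all Zoloft arrays, and the Zoloft rats lay between TBI and Sham. Ift20, of the transport system of cilia, above background on 1 TBI and 2 Zoloft arrays, differed by -1.68 after TBI and 1.04 with Zoloft, Fgd3, an exchange factor for Cdc42, by -1.53 and 0.69, and Cavin2, Rchy1, Adra2b and Cox6c-ps1 by -1.20, -1.69, -1.77 and -2.18 after TBI. The 20 also included Ccdc60, Lypd2, Pou5f1 and the olfactory receptor Olr1454. Genes that had risen after TBI and fell with Zoloft included Cct5, Eif3g, Jagn1, Wdr18, Mcat, Elp6, Metap1d, Dhrs7b and Lrp12, with injury differences of 0.57, 0.64, 0.74, 0.53, 0.76, 0.75, 1.16, 0.50 and 0.71.

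The rats' median levels over the 201 raised probes show where the groups lay, as a description of probes chosen by this contrast. They were -3.06 and -2.98 in Sham, -4.93, -4.58 and -4.47 in TBI and -3.60, -3.73 and -3.48 in Zoloft. TBI lay apart from the other groups, since imipramine was at -3.60, -3.61 and -3.62 and Prozac at -4.33, -3.90 and -3.78. At 130 of the 201 probes the TBI rats were below all 11 other rats, which held for 397 of all probes tested. Prozac rat 1, which shared slide 1 with the TBI rats, was below the mean of Prozac rats 2 and 3 at 171 of the 201 probes, with a median difference of -0.41, beside 0.046 over all probes. The part of the slide in the rise of these probes was not tested beyond the slide block given above. The 38 lowered probes were at medians of -3.56 and -3.48 in Sham, -3.54, -3.12 and -3.06 in TBI and -4.15, -4.01 and -4.23 in Zoloft. There the Zoloft rats lay apart, with imipramine at -3.24, -3.24 and -3.39 and Prozac at -3.23, -3.29 and -3.26, and Prozac rat 1 differed from the other Prozac rats by a median of 0.09.

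**Figure D3:**
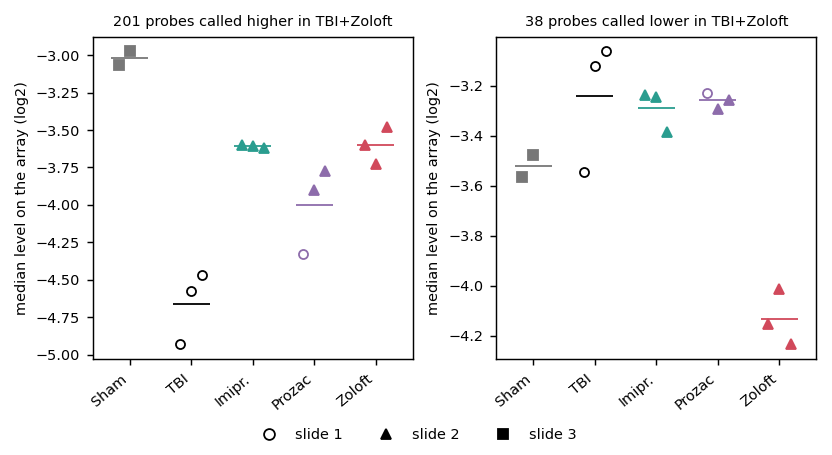
Median level of each rat (vertical axis, log2 relative to the 75th percentile of the array) over the 201 probes raised and the 38 probes lowered with Zoloft against TBI, by group (horizontal axis), with the marker shape giving the slide. Over the raised probes the TBI rats are lowest and the Prozac rat of slide 1 lies between them and the rest, and over the lowered probes the 3 Zoloft rats lie below every other rat.

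Injury probes were also chosen without any TBI or Zoloft array, as those called in the same direction in both the imipramine and the Prozac rats against Sham. Of 1907 probes raised by that rule, 21 were lowered with Zoloft against TBI (1.1%, beside 0.219% of all probes) and none was raised, while 1460 (76.6%) were lower, by a median of -0.20. Their median difference from Sham was 0.76 in TBI and 0.58 in Zoloft. Of 328 probes lowered by that rule, 77 were raised with Zoloft against TBI (23.5%, beside 1.16% of all probes) and none was lowered, and 304 (92.7%) were higher, by a median of 0.55. Their median difference from Sham was -1.22 in TBI and -0.69 in Zoloft. The Zoloft rats lay on slide 2 with 5 of the 6 rats that defined these probes, and with the slide as a block none of the 98 called probes of both kinds was called. The 98 became 0 without Zoloft rat 3, 12 and 14 without TBI rat 1 or 2, 42 and 10 without Zoloft rat 1 or 2, and 33 without either Sham rat.

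The best known genes of the injury response were not among the called genes. Of 23 injury markers measured, 22 were called higher in TBI than in Sham, beside 8.3% of all probes. In Zoloft against Sham 21 were called higher, beside 4.16%. The markers were chosen with earlier results of these data known, so these counts against Sham are a description and not a test. The medians were 4.30 and 3.95, and none of the markers was called between Zoloft and TBI. Timp1, a metalloproteinase inhibitor, was at -3.15 and -1.99 in Sham, 2.30, 2.54 and 2.60 in TBI and 2.10, 1.95 and 3.04 in Zoloft. Its difference with Zoloft was -0.11 (SE 0.34, limma adjusted p = 0.918). Ccl2, a monocyte-attracting chemokine, was at 0.80, 0.36 and -0.84 in TBI and at 0.24, -0.10 and 3.11 in Zoloft, where rat 3 alone was higher. Vim, the intermediate filament vimentin of reactive astrocytes and other cells, was at -0.30, -0.28 and -0.59 in TBI and at -0.98, -1.31 and -1.27 in Zoloft. The groups did not overlap, but the difference of -0.80 (SE 0.29) was not called (limma adjusted p = 0.200). Differences for Lcn2, an acute-phase iron carrier, Gfap, the astrocyte filament, and Spp1, osteopontin, were 0.84, -0.47 and -1.43, and none was called (limma adjusted p = 0.693, 0.636 and 0.512). The median difference of the 23 markers was 0.17, and -0.32 without Zoloft rat 3, when 21 of the 23 were lower and 2 higher.

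The called probes were also set against the other antidepressants. These comparisons share the Zoloft arrays with the comparison against TBI, by which the probes were chosen, so the shares of all probes beside them are not what such probes would show without a difference between drugs. Of the 38 lowered probes, 35 were also called lower in Zoloft than in imipramine rats (beside 5.25% of all probes) and 34 lower than in Prozac rats (beside 3.61%), with medians of -0.98 and -0.91, and 32 were lower than in both, or 1 without Zoloft rat 2. Over all probes the median difference was -0.18 against imipramine and -0.11 against Prozac. Cct5 and Ctbs were lower than with imipramine (limma adjusted p = 0.011 and 0.017) and than with Prozac (limma adjusted p = 0.017 and 0.022). Abhd16a was called against neither, with differences of 0.06 and -0.06. Fitted on the 8 arrays of slide 2 alone, 26 of the 38 were called lower than with imipramine (223 over all probes) and none lower than with Prozac, where 2 Prozac arrays remained and no probe of any kind was called, with medians of -0.98 and -0.90.

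Of the 201 raised probes, 1 was called higher than with imipramine (Cdh23, beside 0.0404% of all probes) and 2 lower, with a median of 0.08. In all, 9 were called higher than with Prozac (beside 0.0808%), among them Hes1, Cdh23, Arfgef2 and Or4d6, and 1, Ppp1r14bl, was called lower, with a median of 0.44. Cdh23 differed by 1.42 from imipramine and by 2.04 from Prozac (limma adjusted p = 0.046 and 0.020), and Arfgef2 by -0.04 and 0.78 (limma adjusted p = 0.91 and 0.029).

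Among the 70 gene lists were genes of sensory epithelia and skin, most of which were too dim to be tested. Of 1297 olfactory, vomeronasal and taste receptor genes on the array, 30 passed the filter on dim probes and 9 were above background on all 6 arrays. Of these 30, 8 rose with Zoloft (Or4d6, Or10g9b, Or4b1, Olr1454, Or5p76b, Vom1r61, Or8c19 and Or10am5) and none fell, beside 1.16% of all probes raised, and the median was 0.85. The filter admits a receptor that is bright in any 1 group, so these 30 do not stand for the family, and their counts and median are a description. Their median was -1.37 in TBI against Sham, where 25 were called lower, beside 8.32% of all probes. Or4d6 was at -3.89 and -3.94 in Sham, -5.55, -5.40 and -5.32 in TBI and -4.50, -4.17 and -3.77 in Zoloft, a rise of 1.27 (SE 0.17, limma adjusted p = 0.011). The receptor median was 0.79 without Zoloft rat 3, 0.65 with the slide as a block and 0.45 with a model-based background correction. Of 76 cytokeratins, cornified-envelope and other epithelial genes on the array, 17 passed the filter and 9 were above background on all 6 arrays. The same limit holds for these 17, of which 4 were raised (Lce1e, Krtap5-8, Krtap10-9 and Krtap2-1, beside 1.16% of all probes) and none lowered, with a median of 0.60. Krtap10-9, a hair keratin-associated protein whose call rests on 1 of 2 probes, was at -0.79, -0.39 and -0.43 with TBI and at 0.09, 0.01 and 0.49 with Zoloft.

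**Figure D4:**
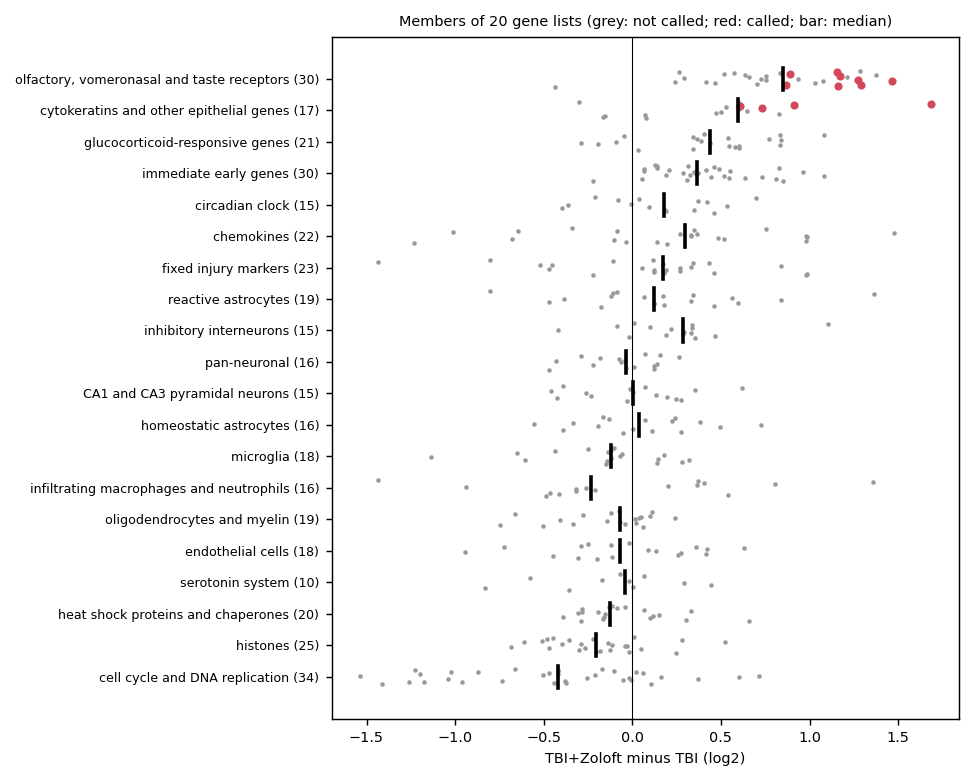
Difference between TBI+Zoloft and TBI (horizontal axis, log2) of every measured gene in 20 of the gene lists (rows), with called genes in red, other genes in grey and a bar at the median of the list. Olfactory and epithelial genes lie mostly to the right of 0 and hold all the called points of these 20 lists.

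Genes that glucocorticoids switch on leaned higher with Zoloft without any call. Of 21 measured, 17 were higher, 8 at an unadjusted p under 0.05 (beside 8.91% of all probes), and the median was 0.44, or 0.37 without Zoloft rat 3, when 19 were higher. Fkbp5, a chaperone of the glucocorticoid receptor, was at -1.04, -0.68 and -0.89 in TBI and at -0.65, 0.10 and 0.44 in Zoloft, with Sham at -0.20 and -0.11. The difference was 0.83 (SE 0.22, limma adjusted p = 0.088). Sgk1, a kinase of ion transport, was at 0.47, 0.88 and -0.22 in TBI and at 1.01, 1.44 and 1.17 in Zoloft, and differed by 0.83 (limma adjusted p = 0.135). Sult1a1, a sulfotransferase, differed by 1.08, Cdkn1a, the p21 inhibitor of the cell cycle, by 0.60, Errfi1 by 0.60, Ddit4 by 0.58, Nfkbia by 0.54 and Tsc22d3 by 0.40, none called. The rats' medians over the list, relative to the TBI mean, were -0.22, 0.31 and -0.04 in TBI and 0.26, 0.44 and 0.79 in Zoloft, so TBI rat 2 lay above Zoloft rat 1. Among 15 circadian clock genes, Per3 was at -3.77, -3.33 and -3.32 in TBI and at -2.84, -2.97 and -2.52 in Zoloft (difference 0.70, limma adjusted p = 0.053).

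Cell cycle genes were lower in Zoloft rats 2 and 3 but not in rat 1. Of 34 measured, none was called, 27 were lower and 8 of them at an unadjusted p under 0.05 (beside 6.3% of all probes), with a median of -0.42. TBI had raised 20 of them against Sham (beside 8.3% of all probes), with a median of 1.19. Cenpf, Aurkb and Ccnb2 were above background on no Zoloft array and on 1, 2 and 1 TBI arrays, so no size is given for them. Ccnb1, cyclin B1, was at -3.70, -3.39 and -4.37 in TBI and at -3.95, -4.72 and -6.57 in Zoloft (difference -1.26, limma adjusted p = 0.240). Zoloft rat 1 thus lay within the TBI range and rat 3 near the Sham levels of -6.15 and -6.31. Ccnb1 was above background on 2 Zoloft arrays. Kif20a, Ccna2 and Ccnd1, measured on all 6 arrays, differed by -1.20, -0.96 and -0.73, none called. The medians over the list, relative to the TBI mean, were 0.23, -0.29 and -1.26 in the 3 Zoloft rats, and without rat 3 the median difference was 0.003, with 17 genes higher and 17 lower. Of 25 histones 20 were lower and none was called, with a median of -0.20, or -0.14 without Zoloft rat 3, when 20 were again lower, and H2bc12 and Hist1h2bd differed by -0.69 and -0.61.

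Zoloft rat 3 also set the direction of the immediate early genes, which neuronal activity switches on. All but 1 of 30 were higher with Zoloft, with a median of 0.37, but the rats' medians were 0.03, -0.07 and 1.05, and without rat 3 the median was -0.035, with 12 genes higher and 18 lower. Arc, a synaptic plasticity protein, was at -0.84, -0.52 and -0.94 in TBI and at -0.67, -1.15 and 2.07 in Zoloft. Egr4, a transcription factor, was at -2.16, -2.60 and 1.04 in the Zoloft rats, so again rat 3 alone was high. Nr4a1 was at -1.44, -1.44 and -1.30 in TBI and at -0.89, -1.19 and -0.71 in Zoloft, a difference in all 3 rats that was not called (0.46, limma adjusted p = 0.146). Choroid plexus genes went the other way between rats. Their 7 measured members had medians of 2.37, 3.16 and 0.03 in Zoloft and -0.61, -0.33 and 0.94 in TBI relative to the TBI mean, and their summed brightness ranged from 3.11 to 31.8 times the 75th percentile in TBI and from 4.60 to 105 in Zoloft. Ttr, transthyretin, the defining secreted protein of choroid plexus, was at -0.68, 0.90 and 4.83 in TBI and at 6.11, 6.65 and 0.78 in Zoloft. The median difference of the list was 1.91, and 2.72 without Zoloft rat 3. The part of the choroid plexus content in the called genes was not tested.

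**Figure D5:**
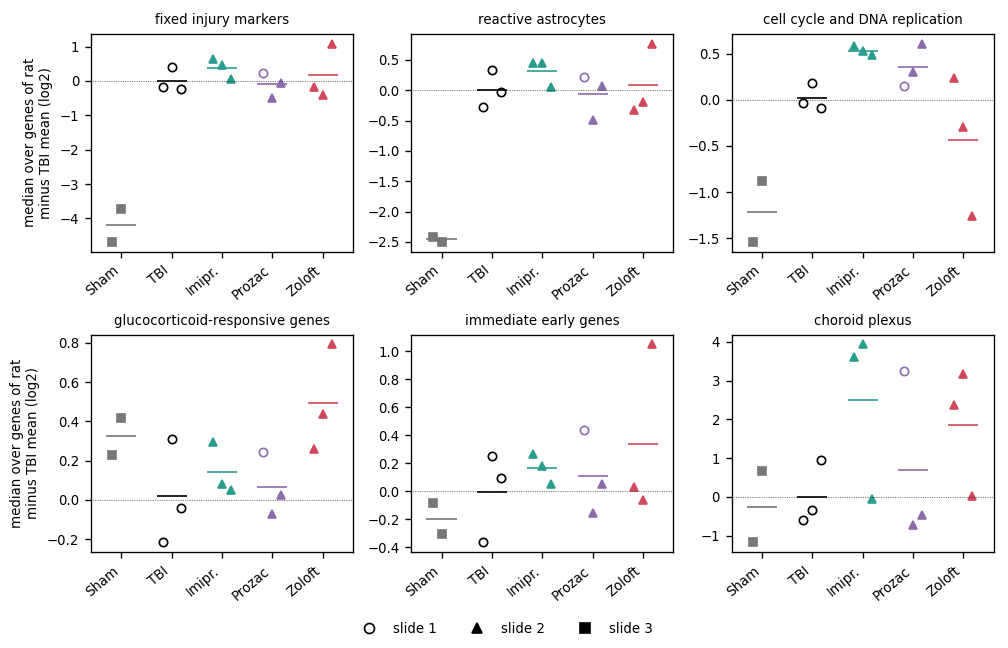
Median over the genes of a list of each rat's level minus the mean of the TBI rats (vertical axes, log2), by group, for 6 lists: injury markers, reactive astrocyte genes, cell cycle genes, glucocorticoid-responsive genes, immediate early genes and choroid plexus genes. Zoloft rat 3 lies apart from Zoloft rats 1 and 2 in the injury marker, reactive astrocyte, cell cycle, immediate early and choroid plexus panels.

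Apart from Hes1 in the list of progenitors, no member of the fixed cell-type lists was called, beside 1.38% of all probes. Lists this short would hold few calls at that share, and called genes outside them, such as Cavin2, were not counted. The median difference was -0.04 for 16 pan-neuronal genes, 0.003 for 15 genes of CA1 and CA3 pyramidal neurons, -0.22 for 8 genes of dentate granule neurons, 0.04 for 16 homeostatic astrocyte genes, -0.12 for 18 microglial genes, -0.07 for 19 oligodendrocyte genes and -0.07 for 18 endothelial genes. Without Zoloft rat 3 the last 3 medians were 0.002, 0.19 and 0.10, so their direction turned, and that of the pyramidal neuron genes was -0.12. Of 15 interneuron genes 12 were higher, with a median of 0.29. The rats' medians over that list, relative to the TBI mean, were -0.50, 0.04 and 0.40 in TBI and 0.32, 0.13 and 0.27 in Zoloft. TBI rat 3 thus lay above every Zoloft rat. Sst, the peptide somatostatin of a class of interneurons, was at 0.19 and -0.08 in Sham, -2.13, -1.11 and -1.02 in TBI and -0.53, -0.39 and -0.03 in Zoloft. Sst was called lower in TBI than in Sham, and its difference of 1.1 with Zoloft was not called (SE 0.28, limma adjusted p = 0.078). Infiltrating macrophage and neutrophil genes, 13 of 16 raised by TBI (beside 8.3% of all probes), had a median of -0.24 with Zoloft. The 22 chemokines had a median of 0.30, or -0.06 without Zoloft rat 3. Of 19 reactive astrocyte genes none was called, the median was 0.12, and it was -0.32 without Zoloft rat 3. Steap4, an iron reductase of that list, was at -2.30, -2.31 and -3.80 in TBI and at -1.77, -1.76 and -0.77 in Zoloft, farther from the Sham levels of -4.64 and -4.48 (difference 1.37, limma adjusted p = 0.112). Cp, the copper carrier ceruloplasmin, differed by 0.59 (limma adjusted p = 0.186). Genes of red blood cells and platelets had a median of 0.42 over 10 genes, with summed brightness from 47.4 to 60.0 in TBI and from 60.2 to 106 in Zoloft.

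Genes of the drug's own target system were measured sparsely. Of 22 serotonin genes on the array 10 passed the filter, and none was called. The serotonin transporter Slc6a4, whose transcript is made in the raphe and not in hippocampal neurons, was above background on no array. Htr1a, the inhibitory 5-HT1A receptor, was at -3.74 and -3.53 in Sham, -3.88, -4.02 and -4.08 in TBI and -4.47, -4.41 and -5.59 in Zoloft. The Zoloft rats were all lower, but the difference of -0.83 was not called (SE 0.25, limma adjusted p = 0.122). Maob, a monoamine oxidase of astrocytes, was at -1.13, -0.80 and -0.64 in TBI and at -1.15, -1.40 and -1.74 in Zoloft (difference -0.58, limma adjusted p = 0.110). Among 14 measured genes that the study links to antidepressants, none was called and differences ran from -0.46 for the AMPA receptor subunit Gria1 to 0.79 for the neurotrophin Bdnf. Bdnf was at -3.74, -3.73 and -3.26 in TBI and at -3.44, -3.64 and -1.29 in Zoloft, and Vegfa, a vascular growth factor, at 0.06, 0.08 and 2.14 in Zoloft, so rat 3 alone was high in both.

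The lists hold only some of the 93 called genes, and 134 of the 201 raised probes carry no symbol, so they do not show what most of the calls do. Of 70 lists, 13 held at least 1 gene called by its brightest probe, and 57 held none. In lists among those 57, Hspa8 and Nars1 were called lower, and Rpl17l5 and Slc22a15 higher, by dimmer probes only. Beside the 8 olfactory, 4 epithelial, 2 respiratory-chain and 2 cadherin genes, the lists of neurogenic progenitors and the Notch pathway held Hes1, the adrenergic and related receptors Adra2b, the Wnt and related pathways Sfrp1, the synaptic genes Nlgn2, the kinesins and tubulins Tuba3b, and the sodium and calcium channels Cacna1i. Ctbs of the lysosome and Eif3g of translation were the 2 listed genes called lower by their brightest probe. Single calls in a list are not read as a result, since 1.38% of all probes were called. Of the 57 lists without a call by a brightest probe, 55 had 5 or more measured genes. Their medians ran from -0.42 for the cell cycle to 1.91 for choroid plexus.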

How the data were processed

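The 14 gene expression arrays are 1-colour Agilent rat arrays, 1 per rat, and the sample titles gave each array's group and rat number. The deposited files hold spot intensity that the authors read with Agilent Feature Extraction 11.5.1.1, background-subtracted and detrended by that program, together with other values, which are flags of 0 or 1 per spot for being above background, outlying or saturated. The deposited series table was used as an alternative. Apart from probes at a floor value, it holds mostly the authors' intensity of each probe divided by 1 constant per array. From 5377 to 9437 probes per array were at the floor, except on the arrays of TBI rat 1 and Zoloft rat 2, where none was.

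For each probe the processed signals of spots not flagged as outliers were averaged, divided by the array's 75th percentile over probes above background and put on the log2 scale. Probes above background on all arrays of at least 1 group were kept. A single limma 3.58.1 model (R 4.3.3) with 5 group means was fitted to the 14 arrays (residual df 9), and the contrasts were adjusted by Benjamini-Hochberg over 17322 probes. Probe accessions were matched to the RefSeq gene table of GRCr8, which named 18643 of 30367 probes. For lists each gene was represented by its brightest probe. Tables were handled with Python 3.11.15, numpy 2.4.6 and pandas 2.3.3, and the fit was tested on simulated data.

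Genes named were the called genes above background on all 6 arrays with the largest differences (at most 15 in each direction), those above background on all arrays of only 1 group (at most 5), and the 20 genes with the largest injury difference that moved toward Sham. Every other gene, such as Igtp, Cdh23, Hspa8 and all uncalled genes, was chosen after their values were seen. The members and the gene lists were chosen with earlier results of these data known. The normexp background correction used median spot and background signals, and it and the fit on slide 2 alone were chosen after seeing the data. The sources do not give how replicates were handled beyond numbered rats, so p-values measure the spread between these arrays. The number of arrays limits the precision. The miRNA arrays were not analysed here.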

Additional observations from a re-analysis of the deposited data

Results flagged for a closer look

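Zoloft was set against TBI and against each of the other antidepressants, and the difference between drugs was tested as a contrast in the same fit, which shares the Zoloft arrays that chose the probes. Among the 38 probes lowered against TBI, 35 were also lower in TBI+Zoloft than in TBI+Imipramine (beside 5.25% of all probes). Against TBI+Prozac 34 were lower (beside 3.61%). On slide 2 alone these counts were 26 and 0, beside 223 and 0 over all probes, with 2 Prozac arrays left. Among the 201 probes raised against TBI, 9 were also higher in TBI+Zoloft than in TBI+Prozac (beside 0.0808% of all probes). Only 1, Cdh23, was higher than in TBI+Imipramine (beside 0.0404%).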

How the results depend on the processing

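The count of 239 called probes became 803, 824 and 805 with quantile normalization, the percentile over all probes and the series-table values, 22 without the filter on dim probes, 703 with the slide as a random block, 1 with it as a fixed block and 19 with only the 6 TBI and Zoloft arrays. The methods' t-test called 0 after Benjamini-Hochberg and 1407 at their unadjusted threshold. Leaving out 1 rat gave 1 to 231. The 208 probes toward Sham became 593, 618, 603, 21 and 556 under the first 5 of these settings in that order, and 0 to 208 without 1 rat. The 98 injury probes chosen without TBI and Zoloft arrays became 368, 380, 373, 8 and 236, and 0 to 90; a fixed slide block gives neither count, since Sham has a slide of its own. The 32 probes below both other drugs became 17 with quantile normalization, 17 with the percentile over all probes, 15 with series-table values, 12 with normexp, 0 without the filter, 0 with the fixed slide block, 0 on slide 2 alone and 1 to 34 without 1 rat. The causes were not tested. With the replicate number as a block the counts were 252, 232, 109 and 21, but same-numbered TBI and Zoloft rats did not deviate together (r = -0.045, -0.026 and -0.186), no rat correlated best with its own number, and the numbers were not taken to pair the rats. No called gene named in the text changed direction under 22 settings, but many of these settings could not turn a difference. Changes of the test, the filter or the Sham rats leave the difference as it is. Since the groups did not overlap at any called probe, leaving out a TBI or Zoloft rat cannot turn it either. Without 1 rat, differences of uncalled genes ran from -0.14 to 1.47 for Arc, from -0.037 to 1.57 for Ccl2, from -0.057 to 1.77 for Egr4 (each lowest without Zoloft rat 3) and from -0.45 to 0.094 for Timp1, which was 0.26 with the fixed slide block.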
